A study of Drosophila melanogaster with 2 samples.

Results

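The genes described here encode the proteins of the mitochondrial ribosome in Drosophila melanogaster. They were taken from the Ensembl annotation of the dm6 assembly as the protein-coding genes whose symbol starts with mRpL (large subunit) or mRpS (small subunit) followed by a digit. This gave 73 of the 13968 protein-coding genes on the 7 chromosome arms, with 47 genes of the large subunit and 26 of the small. The lists of Pita peaks were searched for summits beside the transcription start sites (TSS) of these genes.

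Mitochondrial ribosomes translate the few respiratory chain subunits that the mitochondrial genome encodes. Their ribosomal RNAs come from that genome, but every protein of both subunits is encoded in the nucleus, translated in the cytoplasm and imported. Pita is an architectural (insulator) protein that binds DNA through a cluster of zinc fingers and is known for its sites at boundaries of the bithorax complex.

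Chromatin immunoprecipitation with sequencing was done on whole embryos of mixed sex, 0 to 24 h old, of a transgenic line in which GFP is fused to the C terminus of Pita. The 2 libraries, biological replicates 1 and 3, carry the same transgene and form 1 group with no treatment and no second genotype. The labels describe a precipitation of the fusion protein with an antibody to GFP, while their antibody field names pita. A control experiment is named and was not analysed here. Nothing says whether the replicates came from separate cultures, so the differences between them may be technical in part. Embryos of all stages and cell types were pooled in a library, so a peak cannot be placed in a tissue or at an age. With 1 group there was no contrast and no test, and the main counts stand beside the same share over all protein-coding genes.

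The values are the authors' peak lists, in which every peak has an interval, a summit and a signal on a scale that is not stated. The signal was used only to describe peaks and to rank them within a list. The reproducible list, thresholded by irreproducible discovery rate (IDR), held 1338 summits with a lowest signal of 144 and a median of 491. The lists of candidates, deposited as peaks and background, held 30000 entries for each replicate and for both replicates pooled. Read depth is unknown, because the lists hold no read counts. The strongest summit within 500 bp of any annotated TSS was taken for each gene and list.

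Pita peaks of the reproducible list lay at the promoters of 5 of the 73 genes, mRpL13, mRpL1, mRpL47, mRpL33 and mRpS6. That is 6.85% of the family against 5.68% of all protein-coding genes (794 of 13968), a share near the background. The 5 peaks had signals from 535 to 2798, all above the median of the list. Of the 794 genes with a reproducible promoter peak, 551 likewise had one in the stronger part of the list, above its median. Each of the 5 peaks of the family held, within 50 bp of its summit, a match to a 19 bp sequence that was learned from other reproducible peaks. Of the peaks at promoters used for learning, 72.4% held a match too. The layout of the sequence was chosen after a first layout had matched 4 of the 5. The 5 matches are therefore a description and no independent evidence.

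The 5 promoter peaks are shown first as sequence, because the match, its place and its neighbours are what sets these promoters beside the other reproducible peaks. Capitals mark the 19 bp match, printed in the direction in which the learned sequence is read, 5′ to 3′, from the RefSeq sequence of the dm6 assembly. Each stretch runs up to 60 bp to either side of the summit and stops short of any annotated start.

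The stretch at mRpL13 is 2L:18859285-18859405, minus strand.
mRpL13: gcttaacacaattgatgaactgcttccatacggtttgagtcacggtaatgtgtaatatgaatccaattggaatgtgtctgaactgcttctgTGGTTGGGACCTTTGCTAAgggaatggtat
The stretch at mRpL1 is 3R:8301320-8301439, minus strand.
mRpL1: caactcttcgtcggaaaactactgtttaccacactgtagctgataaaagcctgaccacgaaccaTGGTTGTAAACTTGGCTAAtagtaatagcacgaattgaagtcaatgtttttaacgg
The stretch at mRpL47 is 3R:9515909-9516006, minus strand.
mRpL47: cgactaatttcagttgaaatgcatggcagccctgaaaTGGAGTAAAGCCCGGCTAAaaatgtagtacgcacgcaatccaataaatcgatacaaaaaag
The stretch at mRpL33 is X:4322419-4322539, plus strand.
mRpL33: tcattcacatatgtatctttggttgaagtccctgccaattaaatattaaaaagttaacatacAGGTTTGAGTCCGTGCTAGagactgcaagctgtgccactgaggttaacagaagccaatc
The stretch at mRpS6 is 3L:4364128-4364248, minus strand.
mRpS6: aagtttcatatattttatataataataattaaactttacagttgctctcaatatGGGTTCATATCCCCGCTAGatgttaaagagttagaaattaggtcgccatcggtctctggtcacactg

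A peak of the reproducible list lay outside the promoter window but within the gene mRpL27, and of it only the matched site is shown, at 2L:4458859-4458877 on the plus strand.
mRpL27: TGGTTCAGAGCATTGCTAA

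Every one of these 6 sites starts with any base followed by GG and holds GCTA near its right end, while the middle differs. In all, 7 of the 19 positions carry the same base in the 6 sites. Pairs of sites shared between 10 and 15 of the 19 bases, and the sites of mRpL1 and mRpL13, like those of mRpL13 and mRpL27, shared 15. The matches were not exact repeats of one another. Each site was picked by its match to the learned sequence, which itself favours these bases. What the sites share thus follows in part from how they were picked.

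mRpL13 (FBgn0032720) encodes the mitochondrial counterpart of the large-subunit protein L13 of bacteria. Its peak, on 2L from 18859005 to 18859625, was the highest of the family, with a signal of 2798 and rank 36 of 1338. Replicate 1 gave this promoter a signal of 1298 and rank 37, and replicate 3 a signal of 1493 and also rank 37. The summits of the replicates were 3 bp apart, so the libraries placed this peak alike in position and in rank. The summit, at 18859345, lay 97 bp upstream of the TSS, in intergenic sequence. CG10602 is annotated from the same start on the same strand, so the peak belongs to both genes by position and to no opposite-strand neighbour within 1000 bp.

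mRpL1 (FBgn0037566) encodes the counterpart of bacterial L1, the protein of the mobile stalk beside the exit site of the ribosome. Its peak, on 3R from 8301055 to 8301636, had a signal of 2187 and rank 80. Replicate 1 gave a signal of 970 at rank 93, and replicate 3 gave 1223 at rank 76, with summits 4 bp apart. Both libraries thus had it among their strongest peaks. The summit at 8301380 lay 60 bp upstream of mRpL1 in intergenic sequence, and 402 bp from the nearest start of CG9626, which is transcribed the other way.

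mRpL47 (FBgn0014023) encodes the counterpart of bacterial L29, which lies near the exit of the peptide tunnel. Its peak, on 3R from 9515695 to 9516184, was close to that of mRpL1 in strength, with a signal of 2060 and rank 94. Replicate 1 gave 980 at rank 88, and replicate 3 gave 1075 at rank 104, with summits 4 bp apart. The order of mRpL1 and mRpL47 was therefore not the same in the replicates: mRpL47 ranked above mRpL1 in replicate 1 and below it in replicate 3. The summit at 9515964 lay 56 bp upstream of mRpL47 and 43 bp from the start that Kdm3, a histone demethylase gene, and CG8176 share on the opposite strand. Only 99 bp separate the divergent starts, and the intergenic summit lies between them.

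mRpL33 (FBgn0040907) encodes the counterpart of bacterial L33. Its peak, on X from 4322190 to 4322685, had a signal of 851 and rank 450. Replicate 1 gave 430 at rank 393, and replicate 3 gave 423 at rank 476, with summits 44 bp apart. This was the widest distance between replicate summits among the 5 genes. The summit at 4322479 lay 248 bp upstream of mRpL33 and 147 bp from the start of norpA, the phospholipase C of phototransduction, so norpA was the nearer gene.

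mRpS6 (FBgn0035534), the counterpart of bacterial S6, was the only small-subunit gene with a reproducible peak. That peak, on 3L from 4364018 to 4364303, had a signal of 535 and rank 633. Replicate 1 gave 198 at rank 730, and replicate 3 gave 337 at rank 566, with summits 17 bp apart. It was the weakest of the 5 in every list. Its summit at 4364188 lay 362 bp upstream of mRpS6 and only 86 bp from a start of Cip4, an F-BAR protein gene transcribed the other way. Another summit of the reproducible list, at 4364389 with a signal of 463 and rank 696, lay nearer to mRpS6, 161 bp from its start. This one was a shoulder of the stronger summit, defined as lying within 300 bp of it, and it held no match to the 19 bp sequence.

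**Figure D1:**
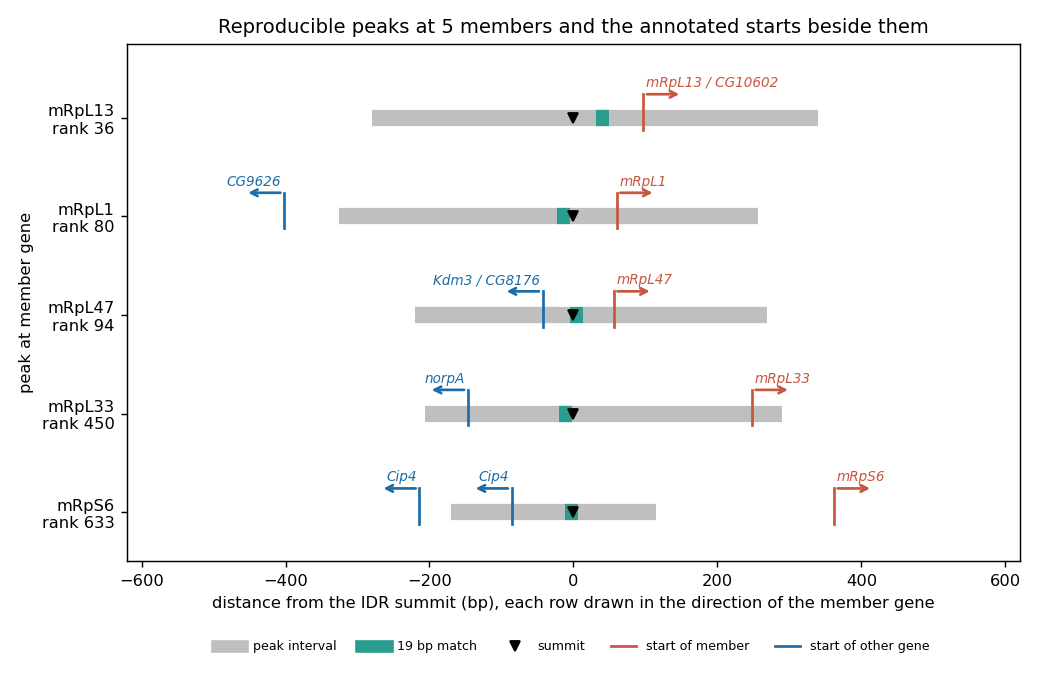
Intervals of the 5 reproducible promoter peaks, drawn by distance from the summit in bp and in the direction of the mitochondrial ribosomal protein gene, with the 19 bp match and the annotated starts of the member and of its neighbours. All 5 summits lie upstream of the member, and at mRpL47, mRpL33 and mRpS6 a neighbour's start is nearer to the summit than the member's.

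The replicates gave these genes similar relative signals. The ratio of replicate 3 to replicate 1 was 1.15 at mRpL13, 1.26 at mRpL1, 1.10 at mRpL47 and 0.983 at mRpL33. At mRpS6 it was 1.70. Over the 773 genes that had a reproducible peak and a candidate in both replicates, the median ratio was 1.17 and the 5th and 95th percentiles were 0.910 and 1.62. The ratio at mRpS6 was thus above this range, and the other 4 were inside it.

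**Figure D2:**
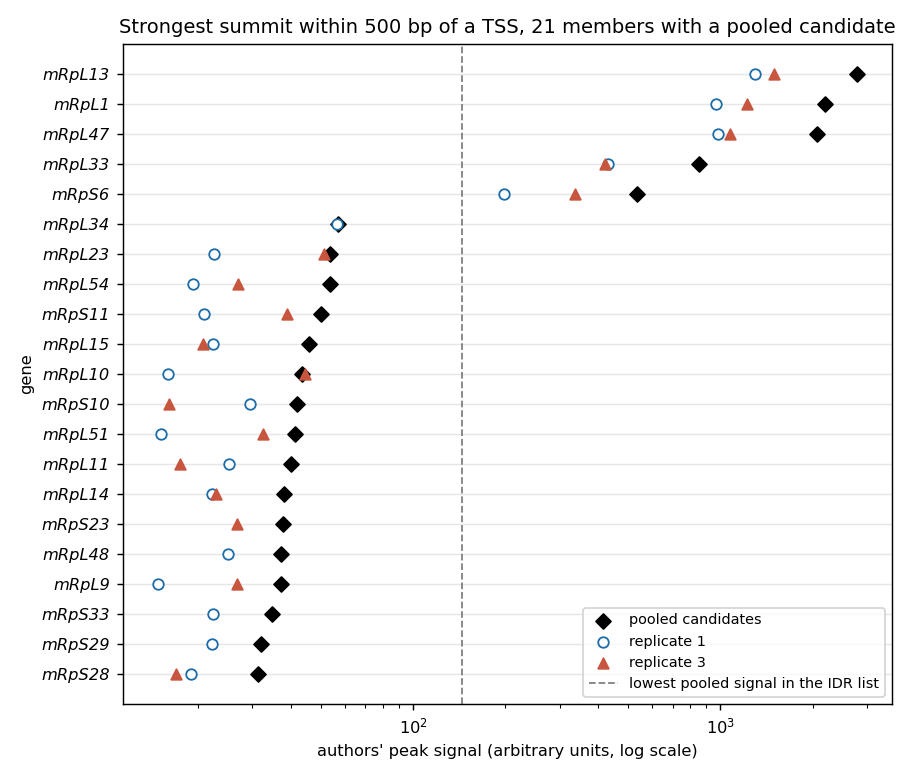
The authors' peak signal (log axis, scale not stated) of the strongest summit within 500 bp of a TSS, for the 21 mitochondrial ribosomal protein genes with a pooled candidate; diamonds are the pooled list, circles replicate 1, triangles replicate 3, and the dashed line is 144, the lowest signal in the reproducible list. The 5 genes with a reproducible peak lie at 535 and above, and the other 16 at 57.1 and below.

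The remaining members fell far below these 5. Of the 73 genes, 21 (28.8%) had a pooled candidate inside the 500 bp window, against 27.4% of all protein-coding genes. The list of replicate 1 had a candidate at 29 genes (39.7%, against 29.0% of all), and that of replicate 3 at 22 (30.1%, against 29.8%). There were 18 genes with a candidate in both replicates (24.7%, against 16.5% of all) and 40 with none in any of the lists (54.8%, against 56.1%). The family's excess over all genes in replicate 1 was not seen in replicate 3. Among all genes with a pooled candidate, 20.8% had a reproducible peak, and among the members 5 of 21 did.

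No mitochondrial ribosomal protein gene had its strongest pooled signal between 57.1 and 535. Over all genes, 5.68% had a reproducible peak and 3.94% had one in the stronger part of that list. Genes with a peak only in the weaker part were thus few in general, and the gap was not tested. The weakest reproducible peak of the family had a signal of 535, and the strongest candidate outside the reproducible list, at mRpL34, had 57.1, at rank 3207. Ranks from 1339 to 5000 of the pooled list held the strongest candidate of 4 members (5.48%, against 4.99% of all genes). A further 5 members (6.85%, against 4.24%) had ranks from 5001 to 10000, and 7 (9.59%, against 6.65%) from 10001 to 20000. No member had its strongest candidate after that, where 811 genes (5.81% of all) had theirs.

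The 10 strongest of these 16 weak candidates had pooled signals from 57.1 down to 38.0, and the replicates were alike at some of them and apart at others. At mRpL34, replicate 1 had a candidate with a signal of 56.5 at rank 1346, and replicate 3 had none within 500 bp. At mRpL23, the counterpart of a bacterial protein at the exit of the peptide tunnel, the pooled signal was 53.8, with 22.4 in replicate 1 and 51.4 in replicate 3. The summits of the replicates lay 516 bp apart there, so they do not mark one place. At mRpL54 the pooled signal was 53.7, with 19.3 in replicate 1 and 26.9 in replicate 3. The replicate summits at mRpL54 lay 253 bp apart, so these values do not belong to one place either. mRpS11, whose bacterial counterpart lies on the platform of the small subunit, had 50.2, with 20.8 and 38.8. Its replicate summits were 28 bp apart, which makes it one of the few weak members seen at the same place in both libraries.

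The next weak candidates were closer to the bulk of the list, whose median signal was 34.7. mRpL15 had a pooled signal of 45.8, with 22.3 in replicate 1 and 20.7 in replicate 3, and replicate summits 12 bp apart. At mRpL10, which encodes the base of the stalk that recruits translation factors in bacteria, the pooled signal was 43.7, with 16.0 in replicate 1 and 44.6 in replicate 3. mRpS10 had 42.0, with 29.5 in replicate 1 and 16.1 in replicate 3. Replicate summits lay 231 bp apart at mRpL10 and 105 bp at mRpS10, so these pairs of values do not belong to one place. mRpL51, mRpL11 and mRpL14 had pooled signals of 41.4, 40.2 and 38.0. The last 6 (mRpS23, mRpL48, mRpL9, mRpS33, mRpS29 and mRpS28) ranged from 37.8 down to 31.3, the last at rank 19891.

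The strongest candidates of both replicates lay within 100 bp of each other at 9 of the 73 genes (12.3%), against 9.69% of all protein-coding genes. These 9 were the 5 genes with a reproducible peak and mRpS11, mRpL15, mRpL11 and mRpS28. None of the 16 weak pooled candidates held a match to the 19 bp sequence within 50 bp of its summit. Over all genes with a pooled candidate and no reproducible peak, 255 of 3029 (8.42%) held one.

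Beyond the promoter window, 2 members (2.74%, against 3.08% of all genes) had their nearest reproducible peak between 500 and 2000 bp from a TSS. That at mRpL27 had its summit at 2L 4458843, in the 3′ UTR of the gene and 759 bp from its nearest start. Its signal was 918 at rank 415, with 437 in replicate 1 and 472 in replicate 3, and summits 13 bp apart. The start of RpL27A, which encodes a protein of the cytoplasmic ribosome, lay nearer, at 479 bp on the same strand. The summit thus falls within 500 bp of a cytoplasmic ribosomal protein gene while lying inside a mitochondrial one. The summit near mRpL55, at 3R 19096454, was 1549 bp upstream in intergenic sequence, with a signal of 2046 at rank 95. Replicate 1 gave 884 and replicate 3 gave 1176 there, with summits 93 bp apart. The nearest start was that of CG6040, at 507 bp. A shoulder summit with a signal of 193 lay 1837 bp from mRpL55. No match to the 19 bp sequence was found within 50 bp of either summit.

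The median distance from any TSS to the nearest reproducible summit was 32689 bp for the 73 genes and 34545 bp for all genes on arms with such a summit. There were 13 members (17.8%, against 13.3% of all these genes) at 2001 to 10000 bp and 26 (35.6%, against 39.3%) at 10001 to 50000 bp. A further 12 (16.4%, against 21.0%) lay at 50001 to 100000 bp and 15 (20.5%, against 17.6%) beyond. The farthest was mRpS5, at 1578848 bp.

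The 73 genes were spread over the large arms, with 12 on 2L, 12 on 2R, 17 on 3L, 21 on 3R and 11 on X. Reproducible promoter peaks were found at 1, 0, 1, 2 and 1 of them, where 5.42%, 4.91%, 5.73%, 5.41% and 7.56% of all protein-coding genes on these arms had one. By subunit, 4 of 47 large-subunit genes (8.51%) and 1 of 26 small-subunit genes (3.85%) had one, and pooled candidates were found at 14 (29.8%) and 7 (26.9%). The difference between subunits rests on so few peaks that no reading is made of it.

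A feature that the family shares apart from Pita is its arrangement. A gene was called head-to-head when a protein-coding gene on the opposite strand starts within 1000 bp upstream of it. This held for 58 of the 73 genes (79.5%), against 36.2% of all protein-coding genes. It held for both subunits, at 37 of 47 large-subunit genes (78.7%) and 21 of 26 small-subunit genes (80.8%). The gaps between the divergent starts ran from 20 bp, at mRpL18, to 793 bp, at mRpL4. Their median was 283 bp, and 53 of the 58 (91.4%) were within 500 bp, against a median of 298 bp and 75.5% over all head-to-head genes.

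This arrangement bears on which gene a peak is counted for. Of the 58 head-to-head members 4 had a reproducible peak (6.9%), against 7.4% of all head-to-head genes, and of the 15 others 1 had one, against 4.71% of all genes without such a neighbour. Of the 58 partners 5 had a peak (8.62%), and 4 of these were the peaks already described, shared with CG9626, Kdm3, norpA and Cip4. The fifth was at the gene FBgn0010607, with a signal of 728 and its summit at 2L 4971575. This gene lies head-to-head with mRpL28 across 55 bp, but the reproducible summit nearest to mRpL28 was 2199 bp from its start. The fifth peak was thus not at the promoter that the 2 genes share. When a summit was counted only for the gene with the nearest start, the members with a reproducible peak fell to 3 (4.11%, against 4.75% of all genes), since the peak at mRpL33 went to norpA and that at mRpL47 to Kdm3 and CG8176. mRpS6 stayed among the 3 through its shoulder summit, and without shoulder summits 2 were left, mRpL1 and mRpL13.

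Genes for the cytoplasmic ribosome, taken by symbol as 93 genes, are set beside the family because they encode the other ribosome of the cell. They had reproducible promoter peaks at 22 genes (23.7%), and at 19 (20.4%) when a summit was counted for the nearest start only. Pooled candidates were found at 43 (46.2%). Head-to-head neighbours were found at 56 (60.2%). The 2 families were not tested against each other, and the higher share in the cytoplasmic family was already known from these data.

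**Figure D3:**
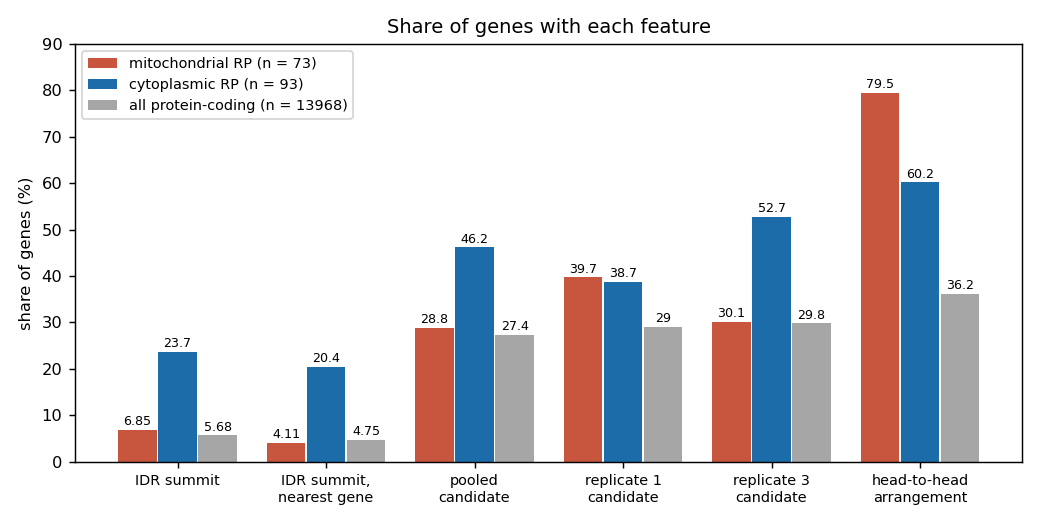
Share of genes in percent, from 0, that have a reproducible (IDR) summit within 500 bp of a TSS, the same by nearest gene only, a candidate in each list, and a head-to-head neighbour, for 73 mitochondrial and 93 cytoplasmic ribosomal protein genes and all 13968 protein-coding genes. The mitochondrial family lies near all genes in reproducible peaks, at 6.85% against 5.68%, and above them in head-to-head arrangement, at 79.5% against 36.2%.

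The sequence under the peaks was described with a matrix of 19 positions, learned from 1085 reproducible peaks that lay over 2000 bp from any member's TSS. The matrix grew in 8 rounds from 99 sites of the 8-mers CTCAAACC and CACAAACC, read on either strand. Both 8-mers were known from earlier results of these data, in which the members' peaks took part. A match was a score above the level that 5% of flanking windows exceed (6.54, in log2 odds), and a stricter match one above the level that 1% exceed (11.15). Within 50 bp of the summit, 64.0% of the training peaks (694 of 1085) held a match, as did 72.4% of those at promoters (441 of 609) and 5.02% of flanks (109 of 2170).

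All 5 promoter peaks of the family held the match at both levels. The scores were 19.81 at mRpL33, 19.39 at mRpL13, 18.97 at mRpS6, 18.35 at mRpL1 and 12.47 at mRpL47, and the site in mRpL27 scored 13.48. The centre of the match was 3 bp from the summit at mRpS6, 4 bp at mRpL47, 11 bp at mRpL33, 14 bp at mRpL1 and 40 bp at mRpL13. The order of the scores was not that of the signals. mRpL33, which had the highest score, ranked 450 by signal, and mRpL47, with the lowest score, ranked 94. Within 50 bp of the summit, mRpL13 held 3 matches that do not overlap, mRpL1, mRpL47 and mRpL33 held 2 each, and mRpS6 held 1. The further match at mRpL33 scored 15.87, above the stricter level. The next best matches at mRpL13, mRpL1 and mRpL47 scored 8.85, 9.88 and 8.30, below that level. The share of other peaks with more than 1 match is not given here, so no reading is made of these numbers. The 8-mer CTCAAACC itself was found at mRpL13, in the lower-case part of the stretch printed above, and at mRpL33, inside the capitals. It was in 6.57% of training peaks at promoters and in 0.184% of flanks.

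**Figure D4:**
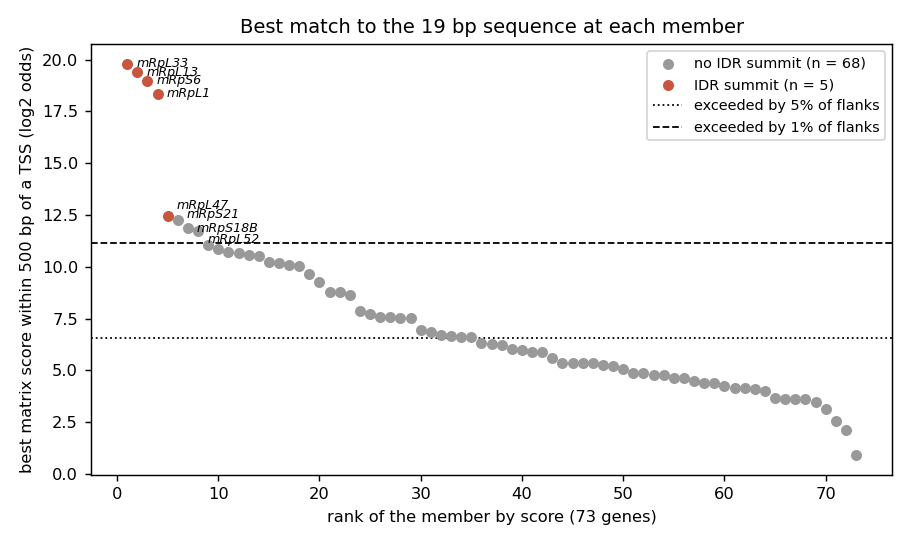
Best score of the 19 bp matrix (log2 odds) within 500 bp of a TSS for each of the 73 mitochondrial ribosomal protein genes, ordered by score, with the levels that 5% and 1% of flanking windows exceed. Those flanking windows reach only 50 bp to either side. In the longer windows scored here, 61.3% and 14.2% of all protein-coding genes exceed the levels. With the layout used here the 5 genes with a reproducible peak have the 5 highest scores, from 12.47 to 19.81, and mRpS21 follows at 12.25. This layout was chosen after a first layout had been seen to put only 2 of them among the 5 highest.

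With the layout used here, the highest scores near the start were those of the genes with a peak. This layout was chosen after the result of a first layout had been seen. The best score within 500 bp of a TSS put the 5 genes with a reproducible peak at places 1 to 5 of 73. The next were mRpS21 at 12.25, mRpS18B at 11.87 and mRpL52 at 11.71, named because they follow directly in this order. Of these, mRpS21 had a candidate in replicate 1 and no other list, and mRpS18B and mRpL52 had none in any list. At the stricter level 8 of the 73 genes (11.0%) had a match in this window, and 5 of the 8 (62.5%) had a reproducible peak. Of the 65 others 0 had one. Over all protein-coding genes the stricter match was found at 1980 (14.2%), of which 31.5% had a reproducible peak, against 1.43% of the genes without such a match. At the 5% level 35 members (47.9%) had a match, of which 5 (14.3%) had a peak, and 0 of the 38 others had one. The same level gave a match at 61.3% of all genes, of which 8.7% had a peak, against 0.906% of the rest. The matrix was learned from reproducible peaks at these other genes. The shares with a peak over all genes are therefore not independent of it.

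The order at mRpL1, mRpL47 and mRpS6 depends on how the matrix was laid out around the 8-mers. A first layout, with 8 bases before the 8-mer and 3 after it, held 49.6% of the training peaks and 4 of the 5 member peaks. It put mRpL33 and mRpL13 at places 1 and 2, mRpS6 at 18, mRpL1 at 29 and mRpL47 at 35 of 73. The layout used above, with 1 base before and 10 after, was taken once that result had been seen, so the separation of the 5 genes by score is a description and no independent evidence.

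Motifs of other promoter factors were searched on both strands from 250 bp before to 50 bp after the outermost start. TATCGATA, the core of the element bound by DREF, a factor of many growth genes, was found at 15 of the 73 genes (20.5%), against 9.36% of all protein-coding genes, 15.8% of head-to-head genes and 30.1% of cytoplasmic ribosomal protein genes. None of the 15 had a reproducible peak; of the 1308 protein-coding genes that held the motif, 113 (8.64%) had one, so a count of 0 among 15 is near the background. GGTCACAC, from the motif of the promoter factor M1BP, was found at 8 (11.0%), against 7.7% of all genes and 13.2% of head-to-head genes. Of the 5 genes with a reproducible peak, mRpL13 held it in this window. The stretch printed above for mRpS6 also holds it, but more than 250 bp upstream of the start and so outside the window. A stricter match to the 19 bp matrix lay in this narrower window at 4 members (5.48%), against 4.66% of all genes. All 4 had a reproducible peak, as did 62.1% of the 651 genes with such a match in all. The latter share includes peaks from which the matrix was learned. The member with a peak and no such match was mRpS6, whose match lies 365 bp upstream.

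Other nuclear genes of mitochondrial gene expression had reproducible promoter peaks at 5 of the 39 that were matched of 43 written symbols (12.8%, against 5.68% of all protein-coding genes), and pooled candidates at 15 (38.5%, against 27.4%). In the list of mitochondrial DNA, transcription and RNA handling, 2 of 14 had a reproducible peak (14.3%, against the same 5.68% of all genes). mtSSB, the mitochondrial single-stranded DNA-binding protein, had one with a signal of 1192 at rank 294, 273 bp from a TSS at 3R 16205523, with 491 in replicate 1 and 706 in replicate 3. bsf, which encodes an RNA-binding protein related to mammalian LRPPRC, had one with a signal of 496 at rank 662, with 246 and 251, only 45 bp from its TSS at 2L 18454632. The start of another gene was nearer still, and bsf lies head-to-head with Ntf-2r across 62 bp.

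Of the mitochondrial translation factors, 3 of 9 matched genes had a reproducible peak (33.3%, against 5.68% of all genes), a share that rests on few genes. The elongation factor gene mEFTs had a signal of 1036 at rank 348, with 487 in replicate 1 and 548 in replicate 3, at 2L 17501180. The initiation factor gene mIF2 had 995 at rank 371, with 363 and 633, at 3R 28545141. waw, which encodes the counterpart of the bacterial elongation factor LepA, had 165 at rank 1247, with 76.5 and 90.4, near the end of the reproducible list. None of the 16 matched mitochondrial aminoacyl-tRNA synthetase genes had a reproducible peak, against 5.68% of all genes, and 5 had a pooled candidate (31.2%, against 27.4%). The 19 bp sequence was found within 50 bp of the summit at bsf and mEFTs and not at mtSSB, mIF2 and waw.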

How the data were processed

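Per the labels and the notes deposited with the files, the authors called candidates for each replicate and for both pooled against a control alignment, and derived the IDR list from these. Per the file layout, each peak has a deposited signal of unstated scale; the sources used here name no aligner, caller or IDR threshold. The 4 dm6 lists were used as deposited. The dm3 lists were not used here, since the annotation (Ensembl release 115) is on dm6; sequence came from RefSeq for the same assembly. Summits are 1-based.

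A summit was counted for every protein-coding gene with an annotated TSS within 500 bp. Named are members with an IDR summit there, the 10 strongest pooled candidates among the others, members with an IDR summit at 500 to 2000 bp, and genes of 3 pathway lists with an IDR summit within 500 bp; other genes named were chosen after their values were seen. Members and lists were chosen with earlier results of these data known. The matrix left out peaks within 2000 bp of a member, and shoulder summits, taken from the strongest down. Assignment of summits was tested on simulated data. Other windows, starts, assignments and lists were tried. Python 3.11.15, NumPy 2.4.6, pandas 2.3.3 and matplotlib 3.10.9 were used.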

Additional observations from a re-analysis of the deposited data

How the results depend on the processing

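The count of 5 members with a reproducible promoter peak became 3 when a summit was counted only for the gene with the nearest TSS, and 2 when shoulder summits were also dropped, an alternative chosen after seeing the data (4.42% of all genes then had a peak). It was 4 within 200 bp (4.01% of all genes), where mRpL33 was lost. mRpS6 stayed there only through its shoulder summit, which lies 161 bp from the start. Within 1000 bp it was 6 (6.76% of all genes), where mRpL27 was added. The count was 5, with the same genes, with 1 start per gene (5.38%), in the stronger part of the list (3.94%) and without shoulder summits (5.57%). Leaving out either replicate, by taking the 1338 strongest candidates of the other, gave 5 to 5 members and the same genes. The shares of all genes were then 5.64% without replicate 1 and 5.76% without replicate 3. The count of 21 members with a pooled candidate moved most: it was 10 within 200 bp (14.4% of all genes) and 41 within 1000 bp (48.3%). It was 14 for the nearest gene only (24.7% of all genes) and 21 with 1 start per gene (23.9%). The list of a single replicate gave 22 (29.8% of all genes) to 29 (29.0%). Ranks in the single replicates were 37 to 37 for mRpL13, 76 to 93 for mRpL1, 88 to 104 for mRpL47, 393 to 476 for mRpL33 and 566 to 730 for mRpS6. All 5 peaks also held the 19 bp sequence or one of its seed 8-mers within 25 and 100 bp of the summit. With the first matrix layout 4 did. The layout used for the main results was chosen after that result had been seen. No paired analysis was possible because the design holds 1 group and no test.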

Other observations

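At mRpL34 the replicates differed in kind. Replicate 1 ranked a summit 117 bp upstream of its start at 1346, shortly after the first 1338 that match the length of the reproducible list. Its signal was 56.5. The pooled list gave 57.1, at rank 3207. The scale of the signals is not stated, so these values are not set against each other. Replicate 3 held no candidate within 500 bp of mRpL34.

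mRpL4 had a match to the 19 bp matrix 107 bp upstream of its start with a score of 10.85, just under the stricter level of 11.15. Its only candidate, in replicate 1 at rank 3216 with a signal of 30.3, had its summit elsewhere, 496 bp downstream of the start. The gene was looked at after its values were seen.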
